A study of Mus musculus with 6 samples.

Results

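The genes described here are 6 ligands of the epidermal growth factor (EGF) family (Epgn, Areg, Ereg, Hbegf, Tgfa and Btc). With them are 3 receptors of the ErbB family (Egfr, Erbb2 and Erbb3) and the feedback inhibitor Errfi1. Together they are 10 of the 55487 genes in the deposited tables. They were chosen by name as a pathway with the knockout comparison already known, in particular the levels of Epgn, so their differences between the groups are given as a description, and a count of members past a threshold is no test of them. All 10 symbols were matched to 1 Ensembl identifier each. Messenger RNA came from epidermis of newborn mouse back skin at postnatal day 0, lifted from the dermis with dispase and broken up with trypsin. One group of 3 libraries is labelled Znf750 cKO and the other group of 3 is labelled Control. The series describes the first as a knockout of Znf750 (mouse symbol Zfp750), which encodes a transcription factor with a zinc finger that acts in keratinocyte differentiation. The sources used here give neither the deleted allele, any Cre driver, the strain, the sex nor the genotype of the controls, nor whether each library came from 1 pup or several, so the spread between libraries may in part be technical.

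EGF family ligands are made as membrane-anchored precursors that metalloproteases cut free. They bind receptors of the ErbB family, which pair up and signal through the Ras and ERK kinases among others. In skin this pathway is known for its role in keratinocyte growth and migration and in the hair follicle, and Errfi1 encodes a protein that binds the active receptor kinase and restrains it.

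Levels are FPKM, read fragments divided by transcript length in kilobases and by the library's mapped total. Zfp750 itself stood at 0.99, 0.83 and 1.47 FPKM in the Znf750 cKO libraries, against 44.82, 32.02 and 34.94 FPKM in the Control libraries. Steps in the low FPKM values place the depth at an estimated 22.9 to 35.4 M reads (megareads) per Znf750 cKO library and 21.5 to 28.4 M per Control library. The keratinocyte markers Krt5, Krt14, Krt1 and Krt10 were each at 5073 FPKM or more in all 6 libraries. Of 7 listed markers of basal keratinocytes 6 had a higher mean in Znf750 cKO, as did 4 of 7 suprabasal and granular ones. The part of this in the levels below was not tested. The endothelial markers Cdh5 and Kdr were at or below 0.1 FPKM. Pecam1, an endothelial marker that leukocytes also carry, was at 5.46 to 31.06 FPKM in Znf750 cKO and 9.34 to 25.12 FPKM in Control. Knockout and Control were compared with limma on log2(FPKM + 1) for the 13688 genes that reached 1 FPKM in 3 or more libraries. This scale understates the change of low genes. A gene is called changed where its p, adjusted by Benjamini and Hochberg's method over all tested genes, is below 0.05, which held for 4.22% of tested genes, 1.11% higher and 3.10% lower. These were 152 genes higher and 425 lower, against 248 higher and 265 lower with median-ratio scaling and 136 higher and 256 lower with the replicate number as a block. Of the 10 pathway members 9 were tested, 1 (Epgn) was called higher and 0 were called lower, counts that follow from how the members were chosen. Areg was below the filter.

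Epgn, Ereg, Areg and Btc lie side by side on mouse chromosome 5 within 375.5 kb, with no other protein-coding gene between them. The bases just before the annotated starts of Epgn, Areg and Btc are shown because the levels of these neighbours differed in opposite directions, Epgn being higher and Areg and Btc lower in every knockout library than in any Control library. The sequences are from RefSeq (GRCm38.p6), written 5′ to 3′ on the strand of the gene, and capitals mark matches to a TATA box (TATAAA) or to the cyclic AMP response element (CRE, TGACGTCA).
Epgn (chr5:91027267-91027463, plus strand): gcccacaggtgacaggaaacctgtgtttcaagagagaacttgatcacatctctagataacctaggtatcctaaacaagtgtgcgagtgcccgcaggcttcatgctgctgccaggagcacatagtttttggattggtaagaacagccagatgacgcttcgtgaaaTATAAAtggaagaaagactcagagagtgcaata
Areg (chr5:91139349-91139598, plus strand): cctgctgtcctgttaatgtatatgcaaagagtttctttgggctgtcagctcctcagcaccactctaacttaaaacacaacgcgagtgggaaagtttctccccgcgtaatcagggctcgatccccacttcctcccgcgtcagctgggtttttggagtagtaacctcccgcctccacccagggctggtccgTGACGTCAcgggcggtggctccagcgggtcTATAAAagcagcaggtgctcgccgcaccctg
Btc (chr5:91402995-91403244, minus strand): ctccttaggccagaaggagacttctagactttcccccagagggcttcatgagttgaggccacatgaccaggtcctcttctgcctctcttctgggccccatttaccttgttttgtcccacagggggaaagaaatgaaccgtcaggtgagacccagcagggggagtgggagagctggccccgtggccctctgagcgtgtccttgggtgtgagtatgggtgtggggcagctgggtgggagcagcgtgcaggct
Both Epgn and Areg hold a TATA box match, 33 and 31 bases before the gene starts of the GENCODE annotation. The RefSeq start of Epgn lies downstream of its GENCODE start, so that the match is 86 bases before it and the last 53 bases of the RefSeq window are not printed. Areg also holds the CRE match, 61 bases before its start. RefSeq promoter windows were found for 7 of the 10 genes, and the 250 bases before the start were searched on both strands in each. Of the 32851 windows in the whole table, 12.4% held TATAAA, 1.55% held TGACGTCA, 6.75% held the AP-1 letters TGANTCA and 13.7% held the TFAP2 letters GCCNNNGGC. Btc held none of these letters, and AP-1 letters were in none of the 7 genes' windows. Errfi1 held TATAAA and TGACGTCA in 1 of its 2 windows, 28 and 51 bases before a RefSeq start that lies downstream of the GENCODE start, and Tgfa held the TFAP2 letters at 2 places. No motif overlapped another, and a match in these windows is a description of letters, not of binding.

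Among the tested members Epgn had the largest log2 difference between the groups, while by the ratio of means the untested Areg lay further apart. Epgn encodes epigen, a ligand of the EGF receptor whose overexpression in mice enlarges the sebaceous glands. It stood at 7.12, 6.61 and 8.68 FPKM in the Znf750 cKO libraries, against 1.74, 1.72 and 1.86 FPKM in the Control libraries. Every knockout library was above every Control library, and the Control libraries lay close together. The means were 7.47 ± 1.08 FPKM in Znf750 cKO and 1.77 ± 0.08 FPKM in Control (SD, n = 3 each), a ratio of 4.21. The fitted log2 difference was 1.60 (SE 0.15). Epgn (ENSMUSG00000035020, chromosome 5, 91027464 to 91035215, plus strand, GRCm38) overlaps no other annotated gene.

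Areg, which encodes amphiregulin, another ligand of the EGF receptor, was low throughout and lower in the knockout. It stood at 0.23, 0.10 and 0.35 FPKM in Znf750 cKO, against 0.91, 1.71 and 0.88 FPKM in Control. The groups did not overlap, and the means of 0.23 ± 0.13 and 1.17 ± 0.47 FPKM differed by a ratio of 0.19. On its 1 annotated transcript of 1215 bases these values are worth an estimated 9, 3 and 9 reads in Znf750 cKO and 29, 41 and 23 reads in Control, so the second knockout library sits at the limit of 3 reads and counting error is large. Only 1 library reached 1 FPKM, so Areg was not in the fit. Leukocytes can make amphiregulin, and most listed leukocyte markers moved with it. All 9 markers of that list had a lower mean in Znf750 cKO, where their summed level was 12.5 to 19.2 FPKM, against 83.3 to 134 FPKM in Control. Of the 9, the 6 that were tested were all called lower. The other 3 were too low to test and overlapped between the groups. Of these the T cell markers Cd3e and Trdc averaged 0.67 and 0.24 FPKM in Znf750 cKO, against 0.83 and 0.30 FPKM in Control. The Langerhans cell marker Cd207 was at 0 in 2 of 3 libraries of each group. The part of leukocytes in the Areg difference was not tested, and in such bulk RNA fewer cells of a type cannot be told apart from less RNA per cell.

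Btc, which encodes betacellulin, a ligand of the EGF receptor and of ErbB4, was the most abundant ligand transcript of every Control library. It stood at 10.49, 5.79 and 13.48 FPKM in Znf750 cKO, against 20.51, 30.89 and 16.68 FPKM in Control. All knockout libraries were below all Control libraries, though the third libraries of the groups lay close to each other. Btc was tested and not called changed. The means were 9.92 ± 3.88 FPKM in Znf750 cKO and 22.7 ± 7.35 FPKM in Control, with a log2 difference of -1.14 (SE 0.34), and of -0.60 without replicate 2 of both groups. Markers of hair follicle and sebaceous gland moved in part with Btc. Of 7 such markers 5 had a lower mean in Znf750 cKO, 2 were called lower (Krt79 and Krt71) and 1 higher (Lhx2). The sum of the 7 was 984 to 1076 FPKM in Znf750 cKO and 1029 to 1459 FPKM in Control. Krt17, not called, made up most of that sum, at a mean of 832 FPKM in Znf750 cKO and 874 FPKM in Control. The part of these markers in the Btc difference was not tested.

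The other ligands overlapped between the groups. Ereg encodes epiregulin, which like betacellulin binds the EGF receptor and ErbB4. It stood at 3.38, 1.48 and 4.38 FPKM in Znf750 cKO, against 3.51, 4.93 and 3.42 FPKM in Control, with a log2 difference of -0.34 (SE 0.29). Znf750 cKO replicate 2 was low, replicate 1 lay just below the lowest Control library and replicate 3 lay among the Control values. Without Znf750 cKO replicate 2 the log2 difference was -0.016. An exon of Ereg overlaps the antisense gene Gm19610, and as no source states that reads were counted by strand, reads of the pair cannot be told apart. Tgfa encodes transforming growth factor alpha, a keratinocyte ligand whose loss in mice gives a wavy coat. It stood at 5.67, 2.81 and 6.61 FPKM in Znf750 cKO, against 3.55, 3.27 and 2.20 FPKM in Control, a log2 difference of 0.55 (SE 0.28). Znf750 cKO replicates 1 and 3 were above all Control libraries and replicate 2 was among them. The log2 difference was 0.85 without Znf750 cKO replicate 2, 0.35 without Znf750 cKO replicate 3 and 0.19 without replicate 3 of both groups. An exon of Tgfa overlaps Gm43917 on the other strand, with the same limit as for Ereg.

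Hbegf, which encodes heparin-binding EGF-like growth factor, a ligand of migrating keratinocytes in wounds, had the largest coefficient of variation within the knockout group, 60.9%. It stood at 7.50, 5.80 and 17.32 FPKM in Znf750 cKO, against 3.83, 6.00 and 8.08 FPKM in Control, a log2 difference of 0.60 (SE 0.43). The third library was the highest of each group. The log2 difference was 0.17 without Znf750 cKO replicate 3 and 0.35 without Control replicate 1. Several immediate early genes, which cells switch on within minutes of a stimulus, were also highest in the third knockout library. Fos stood at 269.29, 188.66 and 558.40 FPKM in Znf750 cKO, against 78.12, 92.03 and 247.13 FPKM in Control. Egr1 stood at 69.47, 53.14 and 203.83 FPKM in Znf750 cKO, against 31.13, 41.01 and 70.99 FPKM in Control. Fosb, Ier2 and Junb also had their highest level of all 6 libraries there, while Egr2 and Egr3 were highest in a Control library. Of the 18 listed transcripts that respond to ERK signalling, 11 were highest in that library, where 18.3% of tested genes were. The part of this in the Hbegf values was not tested.

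**Figure D1:**
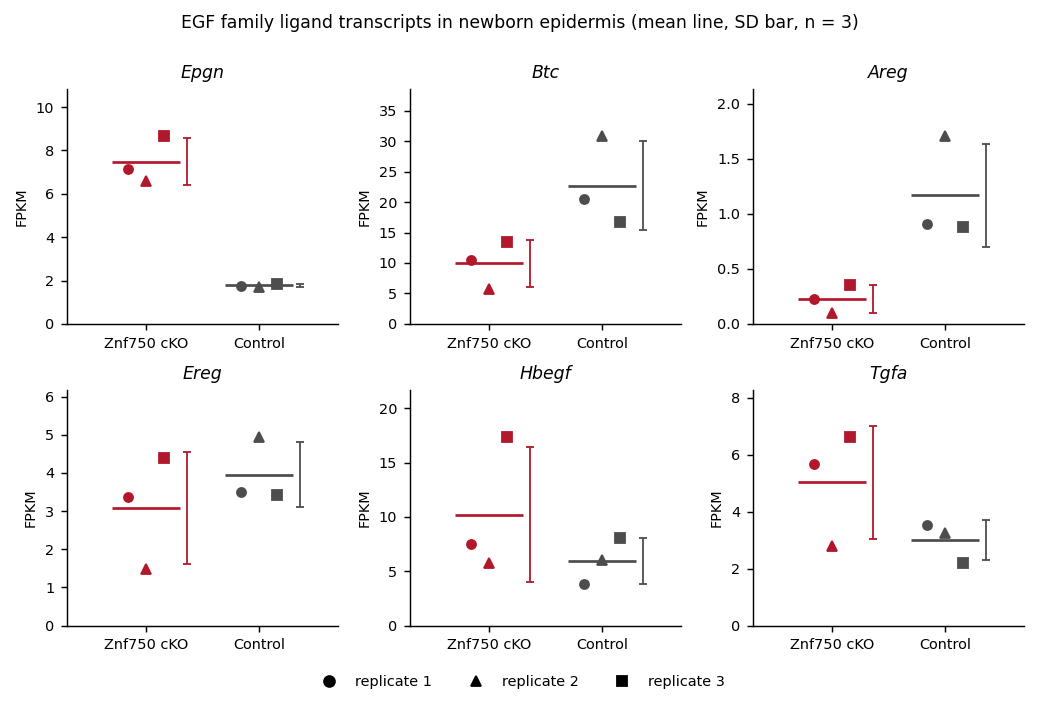
Levels of the 6 ligand transcripts in FPKM (vertical axis, from 0, own scale per panel) in Znf750 cKO and Control libraries; symbols mark the replicate number, lines the means and bars the SD of 3 libraries. Epgn is higher in every Znf750 cKO library and Btc and Areg are lower in every one, while the groups overlap for Ereg, Hbegf and Tgfa.

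Within each library the mix of ligand transcripts differed between the groups, while their sum overlapped. The summed FPKM of the 6 ligands was 34.4, 22.6 and 50.8 in Znf750 cKO, against 34.1, 48.5 and 33.1 in Control. Btc made up 30.5%, 25.6% and 26.5% of that sum in Znf750 cKO, against 60.2%, 63.7% and 50.4% in Control. Epgn made up 20.7%, 29.3% and 17.1% in Znf750 cKO, against 5.11%, 3.54% and 5.62% in Control. The shares of both genes were far apart between the groups, and Epgn ranked 3, 1 and 3 among the ligands in the knockout libraries, against 5 in every Control library. The ratio of Btc to Epgn, which does not depend on the scaling of a library, was 1.47, 0.876 and 1.55 in Znf750 cKO, against 11.8, 18.0 and 8.97 in Control. Hbegf ranked 1 or 2 in all 6 libraries, and Areg was last in all 6.

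**Figure D2:**
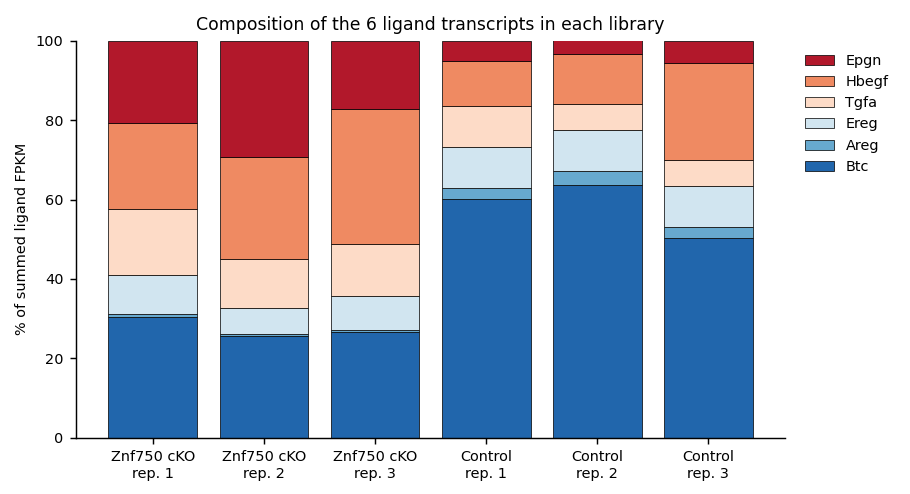
Stacked bars give each ligand transcript as a percentage of the summed FPKM of the 6 ligands (vertical axis) in each library, Znf750 cKO left and Control right. The Btc share is 25.6% to 30.5% in Znf750 cKO and 50.4% to 63.7% in Control, and the Epgn share is 17.1% to 29.3% and 3.54% to 5.62%.

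The 4 ligand genes of chromosome 5 were set beside the nearest protein-coding gene on each side. Mthfd2l, a mitochondrial folate enzyme gene on the Epgn side, averaged 12.5 ± 1.69 FPKM in Znf750 cKO and 12.6 ± 1.60 FPKM in Control, a log2 difference of -0.01 (SE 0.14, limma adjusted p = 0.99). Parm1, a membrane mucin gene on the Btc side, averaged 11.1 ± 1.14 FPKM in Znf750 cKO and 11.3 ± 2.31 FPKM in Control, a log2 difference of -0.01 (SE 0.16, limma adjusted p = 0.98). Both flanking genes were thus nearly level between the groups. The ligand genes between them spanned log2 differences of 1.60 for Epgn to -1.14 for Btc. Btc and Ereg were not called changed, and Areg was not tested. Ereg starts 47.16 kb from the Epgn start, Areg 112.1 kb and Btc 375.5 kb. The other members lie elsewhere: Tgfa on chromosome 6 (86195223 to 86275719), Egfr and Erbb2 on chromosome 11, Erbb3 on chromosome 10, Errfi1 on chromosome 4 and Hbegf on chromosome 18.

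**Figure D3:**
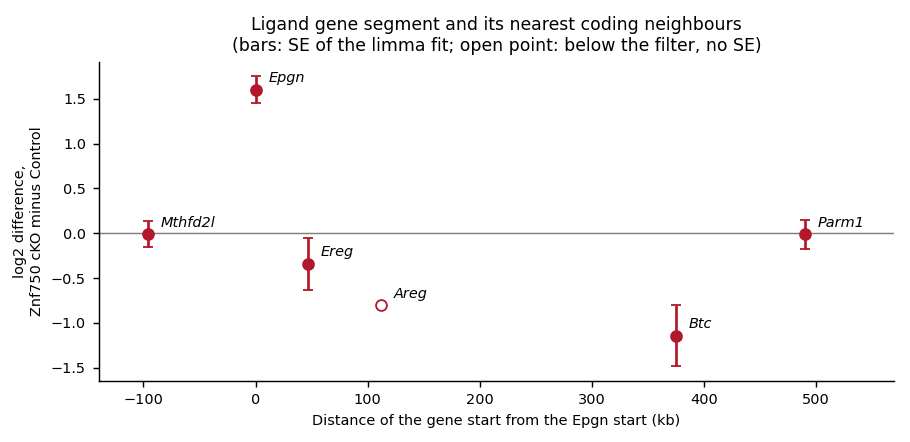
The log2 difference of Znf750 cKO minus Control (vertical axis) is plotted against the distance of each gene's start from the Epgn start in kb for the 4 ligand genes and their nearest coding neighbours; bars are SEs of the limma fit and the open point is Areg, which was below the filter. Mthfd2l and Parm1 sit at -0.01, Epgn at 1.60 and Btc at -1.14.

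The receptor transcripts Egfr and Erbb2 had log2 differences smaller in size than every tested ligand with all 6 libraries. Without Znf750 cKO replicate 2, however, both Egfr (0.35) and Erbb2 (-0.024) exceeded Ereg (-0.016) in size. Egfr (0.19) also exceeded Ereg (0.12) without replicate 2 of both groups. Egfr encodes the EGF receptor, to which all 6 ligands bind. It stood at 14.19, 9.15 and 17.94 FPKM in Znf750 cKO, against 15.68, 9.63 and 12.35 FPKM in Control, a log2 difference of 0.10 (SE 0.26). The groups covered nearly the same range, and the sign turned to -0.10 without Znf750 cKO replicate 3. Erbb2 encodes a partner receptor with no known ligand of its own. It stood at 34.54, 32.46 and 32.77 FPKM in Znf750 cKO, against 36.86, 30.26 and 35.96 FPKM in Control, a log2 difference of -0.04 (SE 0.11) that was 0.06 with median-ratio scaling. All knockout libraries lay within the Control range. An exon of Erbb2 overlaps Mien1 on the other strand, so a share of these reads may belong to Mien1.

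Erbb3 encodes a receptor of neuregulins with a weak kinase that signals through its partner. It stood at 44.51, 28.83 and 40.05 FPKM in Znf750 cKO, against 28.94, 21.98 and 27.39 FPKM in Control. The second knockout library lay just below the highest Control library and the others lay above all of them. The means were 37.8 ± 8.08 FPKM in Znf750 cKO and 26.1 ± 3.65 FPKM in Control, with a log2 difference of 0.50 (SE 0.18). Melanocytes and Schwann cells also express Erbb3, and their markers overlapped between the groups. The summed level of 5 melanocyte markers was 91.7 to 107 FPKM in Znf750 cKO and 73.8 to 132 FPKM in Control, and that of 4 Schwann and neural crest markers was 8.11 to 15.2 FPKM in Znf750 cKO and 8.34 to 14.5 FPKM in Control, with none of these 9 genes called.

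Errfi1 stood at 32.31, 16.89 and 37.46 FPKM in Znf750 cKO, against 23.67, 19.82 and 21.29 FPKM in Control, a log2 difference of 0.33 (SE 0.28). Znf750 cKO replicates 1 and 3 were above all Control libraries and replicate 2 was below all of them. The log2 difference was 0.67 without Znf750 cKO replicate 2, 0.12 without Znf750 cKO replicate 3 and 0.11 without replicate 3 of both groups.

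**Figure D4:**
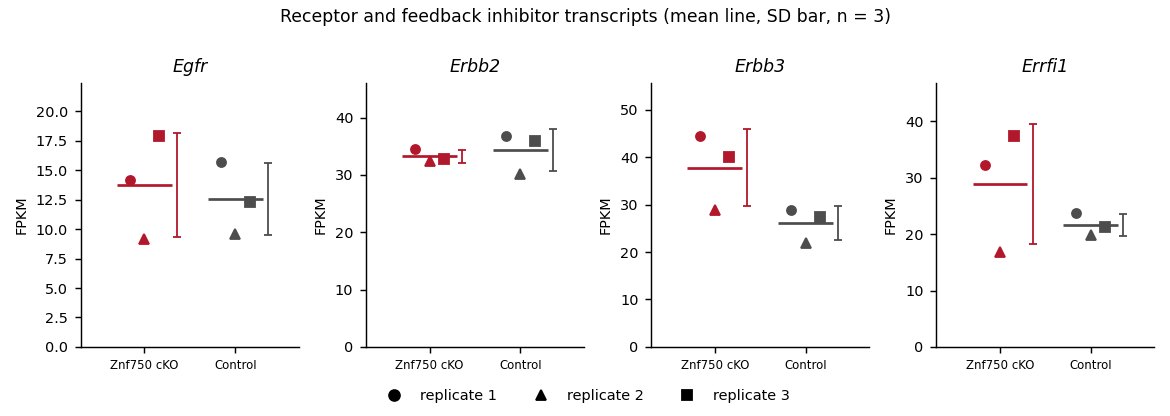
Levels of Egfr, Erbb2, Erbb3 and Errfi1 in FPKM (vertical axis, from 0, own scale per panel) in Znf750 cKO and Control libraries; symbols mark the replicate number, lines the means and bars the SD of 3 libraries. The groups overlap for each of the 4 genes, and Znf750 cKO replicate 2 is the lowest knockout library in each.

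That second knockout library was the lowest of its group for all 10 members, where 42.0% of tested genes had it as the lowest. With values rescaled by median ratios it was the lowest for 9 of the 10, and for 30.4% of tested genes. Within groups most members varied more than the median tested gene. That median was not matched to the members in level, and counting error is large for Areg. The coefficient of variation was 14.4% for Epgn and 3.37% for Erbb2 in Znf750 cKO but 21.4% to 60.9% for the other 8, against a median of 14.2% over tested genes. In Control it was 4.27% for Epgn, 9.0% to 40.4% for the other 9 members and 12.7% for the median tested gene. Groups did not overlap for 2 of the 9 tested members, Epgn and Btc, where 28.0% of tested genes have groups that do not overlap.

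Ordered by mean level in Znf750 cKO, Erbb3 (37.8 FPKM) was followed by Erbb2 (33.3), Errfi1 (28.9), Egfr (13.8), Hbegf (10.2), Btc (9.92), Epgn (7.47), Tgfa (5.03), Ereg (3.08) and Areg (0.23). There, only Ereg and Areg were neighbours whose libraries did not overlap. In Control, Erbb2 (34.4 FPKM) was followed by Erbb3 (26.1), Btc (22.7), Errfi1 (21.6), Egfr (12.6), Hbegf (5.97), Ereg (3.95), Tgfa (3.01), Epgn (1.77) and Areg (1.17). The Control libraries of neighbours overlapped for Erbb3 and Btc, Btc and Errfi1, Hbegf and Ereg, and Ereg and Tgfa.

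Beyond these members, 77 genes of the pathway were listed by role, with earlier results of these data known, so counts over them are a description. Of the 70 tested, 3 (4.29%) were called in either direction, near the 4.22% of all tested genes. All 3 rose and 0 fell, where 1.11% of all tested genes rose and 3.10% fell. The genes that rose were Adam8, Dusp6 and Myc. Fos and Stat3 were also called higher, 5 in all, with the replicate number as a block. With median-ratio scaling 7 of the 70 were called higher, where 248 of 13688 tested genes were. Among the remaining ErbB ligands and ErbB4, 0 of 3 tested genes were called and 3 were too low to test. Neuregulin 4, Nrg4, averaged 1.14 ± 0.19 FPKM in Znf750 cKO and 1.96 ± 0.47 FPKM in Control (log2 difference -0.46, limma adjusted p = 0.20), and the most abundant, Nrg2, averaged 1.96 ± 0.31 FPKM in Znf750 cKO and 2.30 ± 0.78 FPKM in Control. Nrg1 went the other way, with 1.68 ± 0.93 FPKM in Znf750 cKO and 0.83 ± 0.42 FPKM in Control. Its groups overlapped (log2 difference 0.52, limma adjusted p = 0.35). Erbb4, the receptor that betacellulin and epiregulin can also use, did not exceed 0.07 FPKM in any library.

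Of 11 proteases that can shed ligands, their partners and an inhibitor, 10 were tested and 1 rose. Adam8, a membrane metalloprotease, stood at 23.11, 21.34 and 24.47 FPKM in Znf750 cKO, against 8.80, 9.40 and 8.40 FPKM in Control. The groups were far apart and each was tight, with a log2 difference of 1.28 (SE 0.11, limma adjusted p = 0.0018). Adam17, the main protease for most of these ligands, averaged 15.2 ± 0.73 FPKM in Znf750 cKO and 18.7 ± 2.64 FPKM in Control, a log2 difference of -0.27 (adjusted p = 0.27). Adam10, which sheds betacellulin, averaged 30.5 ± 1.05 FPKM in Znf750 cKO and 34.2 ± 2.60 FPKM in Control (adjusted p = 0.40), and the Adam17 partners Rhbdf1 and Rhbdf2 had log2 differences of 0.16 and -0.07. The median of the list was -0.08, as it was over all tested genes.

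Of 20 genes that restrain the receptors or ERK signalling, 19 were tested and 1 rose. Dusp6, an ERK phosphatase that ERK signalling itself induces, stood at 34.73, 29.71 and 42.75 FPKM in Znf750 cKO, against 20.86, 17.56 and 19.51 FPKM in Control (log2 difference 0.84, SE 0.15, limma adjusted p = 0.023). All knockout libraries were above all Control libraries. Among the 6 fits that drop 1 library Dusp6 was called in 2, those without Znf750 cKO replicate 2 or 3. It was not called without replicate 3 of both groups, nor without replicate 2 of both groups. Of the 7 alternatives that keep all 6 libraries it was called in 6, but not with no filter (limma adjusted p = 0.11). Spry2, a Sprouty inhibitor of receptor signalling, averaged 22.8 ± 3.97 FPKM in Znf750 cKO and 14.9 ± 1.27 FPKM in Control (log2 difference 0.57, adjusted p = 0.064). Lrig1, a membrane protein that lowers receptor levels, averaged 49.5 ± 5.45 FPKM in Znf750 cKO and 35.1 ± 5.58 FPKM in Control (log2 difference 0.49, adjusted p = 0.10). The ubiquitin ligases Cbl and Cblb had log2 differences of -0.03 and 0.28, and the list median was 0.02.

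Of 22 genes of proximal signalling 21 were tested and 0 were called by limma. An unadjusted limma p under 0.05 was found for 3 of the 21, and for 2914 of all 13688 tested genes. The most abundant, Hras, averaged 217 ± 8.90 FPKM in Znf750 cKO and 214 ± 32.2 FPKM in Control. Stat3, a transcription factor activated by several receptors, averaged 62.9 ± 6.62 FPKM in Znf750 cKO and 42.1 ± 7.48 FPKM in Control (log2 difference 0.58, adjusted p = 0.074). Stat3 was called when the replicate number was a block and after median-ratio scaling.

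Of 18 transcripts known to respond to ERK signalling, 17 were tested and 1 rose. Myc, a transcription factor of growth, stood at 62.00, 65.94 and 72.65 FPKM in Znf750 cKO, against 30.05, 30.97 and 48.64 FPKM in Control (log2 difference 0.89, SE 0.18, limma adjusted p = 0.042). The groups did not overlap, the third Control library being the nearest. Among the 6 fits that drop 1 library Myc was called in 1, where Control replicate 3 was dropped. Of the 7 alternatives that keep all 6 libraries it was called in 5, but not with plain limma (adjusted p = 0.069) or no filter (adjusted p = 0.17). It was called without replicate 3 of both groups and not without replicate 2 of both groups. In this list 15 of 17 tested genes had a positive log2 difference, where 37.8% of all tested genes did. The list median was 0.43, against -0.08 over all tested genes. With 1 library left out the list median was 0.20 to 0.52, with 12 to 15 of 17 positive. It was lowest without Znf750 cKO replicate 3 (13 of 17 positive), and 12 of 17 were positive without Znf750 cKO replicate 1. Without replicate 3 of both groups the list median was 0.28, with 12 of 17 positive. The cell cycle gene Ccnd1 averaged 65.8 ± 4.91 FPKM in Znf750 cKO and 46.6 ± 4.78 FPKM in Control (log2 difference 0.49, adjusted p = 0.051). Etv5 and Etv4, factors of the ETS family, had log2 differences of 0.43 and 0.11, with adjusted p = 0.23 and 0.85.

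**Figure D5:**
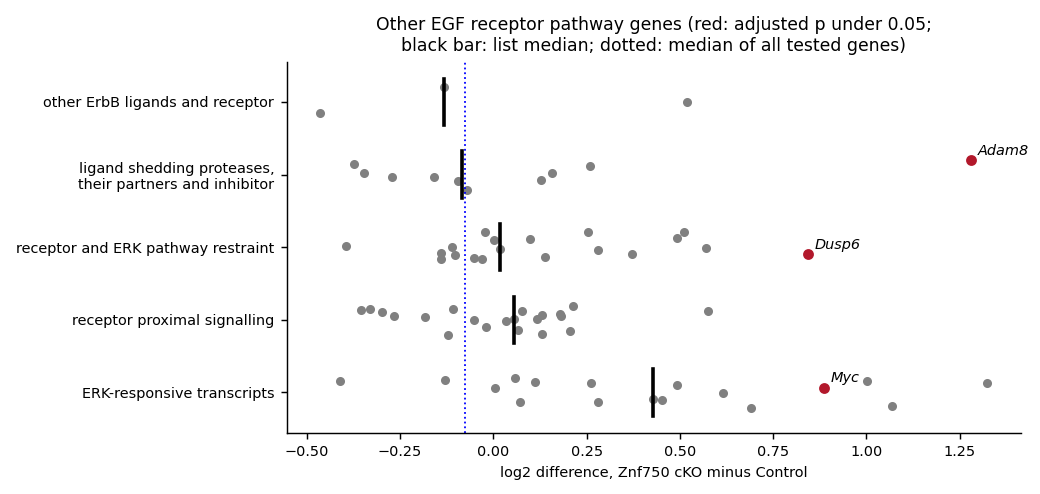
The log2 difference of Znf750 cKO minus Control (horizontal axis) is shown for the 70 tested pathway genes in 5 lists; red points passed an adjusted p under 0.05, black bars are list medians and the dotted line is the median of all tested genes. The genes past the threshold are Adam8, Dusp6 and Myc, and the ERK-responsive list has its median at 0.43.

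The tested genes with levels most like those of Epgn were found by the Euclidean distance between log2(FPKM + 1) values, each centred on its mean over the 6 libraries, among 11930 genes with a mean of at least 2 FPKM. They were Bhlhe40, a repressor of the helix-loop-helix family (distance 0.32), Slc24a3, a sodium, calcium and potassium exchanger (0.40), Rab15, a small GTPase of endosomes (0.44), Scin, an actin-severing protein (0.44), and Adam8 (0.45). Bhlhe40 stood at 24.09, 24.35 and 30.14 FPKM in Znf750 cKO, against 8.72, 9.76 and 9.99 FPKM in Control. These genes were selected for the same pattern over the same libraries, so their levels are a description as well.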

How the data were processed

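RNA of 3 Znf750 cKO and 3 Control epidermis libraries was read as 100-nucleotide single reads after poly(A) selection, per the labels' protocols, with a kit not stated to mark strand. Per the file headers, the authors deposited FPKM, 1 value per Ensembl gene. Per the submitters' processing notes, the tools included RSEM 1.2.28 and STAR 2.5.2a as well as cutadapt 1.15, Trim Galore 0.4.5 and DESeq2, with builds GRCm38 and mm10. These notes state no role for them. The sources used here give no annotation release.

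Symbols matched 55141 of 55487 identifiers, and coordinates are from GENCODE mouse release M21 (GRCm38), which holds 99.4% of them. The fit was limma 3.58.1 (R 4.3.3, statmod 1.5.0) on log2(FPKM + 1), with group as the sole term and robust, intensity-dependent variances. It was also run on simulated data with independent noise per library, which cannot show how it behaves where libraries are correlated. Plots used Python 3.11.15 and matplotlib 3.10.9. Depth was estimated from genes with 1 transcript, whose FPKM times length less 99 bases should be whole multiples of a step, and 57.2% to 72.1% of low values per library fell within 0.1 read of a whole number. These depths entered no test.

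Members and pathway lists were chosen with earlier results of these data known. Genes named are the members, the pathway genes past the threshold, the most abundant gene of a list with none, the 5 genes nearest to Epgn in pattern and the neighbours of the ligand segment. Other genes named, and the CRE letters, were chosen after their values were seen. Alternatives were other pseudocounts, no filter, other scalings, plain limma, a replicate block and libraries left out. After group means were taken off, same-numbered libraries had correlations across genes of 0.31 (number 1), 0.17 (number 2) and 0.48 (number 3), above the limit of 0.1. Differently numbered libraries had -0.39 to 0.24, and Znf750 cKO replicate 2 correlated more with Control replicate 1 (0.24) than with its own number. This pairing rests on the data alone, as no label explains the numbers.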

Additional observations from a re-analysis of the deposited data

How the results depend on the processing

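Under the 15 alternatives tried, 2 of them chosen after seeing the data, the log2 difference of Epgn was 0.88 to 2.01, a description of the gene the choice of members rested on. Adam8 was called higher under all 15. The members kept the sign of their log2 difference under these settings with the exceptions that follow. Ereg had 0.12 without replicate 2 of both groups. Egfr ranged from -0.102 to 0.348 with 1 library left out, being negative without Znf750 cKO replicate 3 or Control replicate 2 (-0.062), and had -0.101 without replicate 3 of both groups. Erbb2 ranged from -0.127 to 0.0107 with 1 library left out, being positive without Control replicate 1, and had 0.065 with median-ratio scaling and 0.0034 without replicate 3 of both groups. With 1 library left out, 1 or 2 members were called higher, Errfi1 joining Epgn without Znf750 cKO replicate 2.

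Pathway genes called higher numbered 1 with no filter and 2 with plain limma (Adam8 and Dusp6). They numbered 7 with median-ratio scaling (Adam8, Ccnd1, Dusp6, Lrig1, Myc, Spry2 and Stat3) and 5 with the replicate block (Adam8, Dusp6, Fos, Myc and Stat3). Without replicate 2 of both groups 1 was called higher, and with 1 library left out 1 to 2 were. Over all genes, 31 rose and 54 fell with no filter, where 35621 genes were tested, and 248 rose and 265 fell with median-ratio scaling. With the replicate block 136 rose and 256 fell. Without replicate 3 of both groups 95 rose, and without replicate 2 of both groups 30 rose and 23 fell. With 1 library left out 34 to 110 rose and 66 to 259 fell. Among the members and genes named by the rule, the block changed no call. The cause of these shifts was not tested, beyond the fewer libraries or the larger number of genes in some fits. Areg, fitted only with no filter, had a log2 difference of -0.80 and was not called.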
